A study of Mus musculus with 8 samples.

Results

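The 2 hairpins that target *Eftud2* in R1 mouse embryonic stem cells (mESCs) moved 7 genes in opposite directions. These were *Lin28a*, *Lpin1*, *Slc7a3*, *Pnma5* and *Rabggtb*, which were lower with shRNA1 and higher with shRNA2 than with the control hairpin, and *Myo6* and *9330102E08Rik*, which were the other way round. These 7 genes were chosen by their values in both comparisons with the control, so their levels and fold changes are given as a description and not as a test. Adjusted p-values are printed for *Myo6* and *Pnma5* only to show how close they lie to the edge of the rule. No other gene met the rule among the 17445 genes tested, out of 55385 genes in the count table, and all 7 passed the filter on low counts. *Eftud2* encodes a GTPase of the U5 small nuclear ribonucleoprotein, a core part of the spliceosome. The wild-type R1 cells of all groups were grown without feeder cells in N2B27 medium with 2i and LIF, infected with lentivirus over 2 days and kept in puromycin for 3 days. The study comprised 8 libraries, of which 3 carried shRNA1, whose target lies in the *Eftud2* 3′ untranslated region (UTR), 3 carried shRNA2, whose target lies in its coding sequence, and 2 carried nt-shRNA, a hairpin that targets no gene. The labels name the libraries of a group as biological replicates, and the same 2 nt-shRNA libraries served as the control of both hairpins.

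The products of these genes act in separate parts of the cell. LIN28A is an RNA-binding protein of stem cells that blocks the maturation of let-7 microRNAs, and its own messenger RNA is a let-7 target. LPIN1 is a phosphatidate phosphatase that makes diacylglycerol for triglycerides and membrane phospholipids. SLC7A3 carries arginine, lysine and ornithine across the plasma membrane. PNMA5 belongs to a family of proteins derived from the gag gene of ancient retroelements. RABGGTB is the catalytic beta subunit of geranylgeranyl transferase type II, which puts lipid tails on Rab GTPases so that they can sit in membranes. MYO6 is the motor that walks towards the minus end of actin filaments and takes part in endocytosis and autophagy. The annotation lists *9330102E08Rik* as a long intergenic non-coding RNA.

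The let-7 site of *Lin28a* is shown because it ties this gene to the pathway tested further on, beside the site of its paralog *Lin28b* and the mature microRNA from RefSeq (GRCm38.p6). In the microRNA the capitals mark the seed, bases 2 to 8, and in the 2 sites they mark CTACCTC, the reverse complement of that seed. Both sites lie in a 3′ UTR of the GENCODE M21 annotation (GRCm38) on the minus strand, in *Lin28a* at chr4:134005182-134005211 and in *Lin28b* at chr10:45381015-45381044.

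mmu-let-7g-5p: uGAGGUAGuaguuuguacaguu

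Lin28a: gcacagcctgttgaaCTACCTCatttttgc

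Lin28b: acccgggcgggaagtCTACCTCatgcaagc

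The longest annotated 3′ UTR of *Lin28a* held 2 such matches in 2775 bases and that of *Lin28b* held 4 in 4445 bases. Among 14284 tested genes with a 3′ UTR, 11.8% held at least 1 match. The letters were not found in the longest 3′ UTRs of *Lpin1*, *Slc7a3*, *Pnma5*, *Rabggtb* and *Myo6*.

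Promoter windows were compared because 5 of the genes moved together and 2 moved against them. RefSeq starts (GRCm38.p6) matched 6 of the 7 genes. Motifs were searched on both strands of the 300 bases from 250 before to 50 after the start, for the TATA box as TATAAA, the CCAAT box as CCAAT, the GC box as GGGCGG, an E box as CACGTG and the CREB site core as TGACG. The 100 bases before the start are shown for *Rabggtb*, from the group of 5, and for *Myo6*, the other protein-coding direction, with matches in capitals. The *Rabggtb* window is chr3:153912967-153913066 on the minus strand, and the *Myo6* window is chr9:80164934-80165033 on the plus strand.

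Rabggtb: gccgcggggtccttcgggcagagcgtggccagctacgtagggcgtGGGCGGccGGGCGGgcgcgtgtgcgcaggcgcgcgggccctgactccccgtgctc

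Myo6: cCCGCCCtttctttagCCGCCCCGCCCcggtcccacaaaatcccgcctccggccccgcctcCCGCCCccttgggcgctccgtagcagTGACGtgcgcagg

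*Myo6* held 7 matches to GGGCGG in its 300 bases, 1 to CCAAT and 1 to TGACG, and 68.3% of its bases were G or C. *Rabggtb* held 2 matches to GGGCGG at 66.3% G or C. *Lin28a* held 1 match to GGGCGG, *Pnma5* held 1 to CCAAT, and none of these letters were found for *Lpin1* and *9330102E08Rik*. Of 27025 promoters of the same length, 35.9% held GGGCGG, 37.9% CCAAT, 21% TGACG, 14.2% TATAAA and 7.24% CACGTG. No motif was found in all genes of either direction. Each gene was searched at a single start. That of *Lpin1* lay inside the counted gene, so a start farther upstream was not searched. *Rabggtb* had 2 entries, of which 1 was used, and part of its printed window lies within the counted gene.

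The targeted transcript was lower in each knockdown library than in both controls. *Eftud2* stood at 262.3 and 255.7 CPM (TMM-normalised counts scaled to a common library total) with nt-shRNA, at 231.9, 229.2 and 225.3 with shRNA1, and at 198.2, 202.1 and 234.7 with shRNA2. Its log2 fold change was -0.18 with shRNA1 (adjusted p = 0.0514, edgeR's quasi-likelihood test), -0.29 with shRNA2 (adjusted p = 0.00122) and -0.11 between the hairpins (adjusted p = 0.164). In percent the changes against nt-shRNA were -11.7% and -18.3%. By qPCR the paper reported a larger knockdown with each hairpin, stronger with shRNA2, and by western blot a reduced level of EFTUD2 protein with both. The gap between these counts and the qPCR was not tested. The libraries held between 19569525 and 29871048 counts. Of 12 naive and core pluripotency markers tested, 6 were higher and 1, *Pou5f1*, lower with shRNA1 and 8 higher and 2, *Pou5f1* and *Fgf4*, lower with shRNA2, and their summed level was 4800 to 4850 CPM with nt-shRNA, 5300 to 5470 with shRNA1 and 6250 to 6370 with shRNA2. Of the 8 two-cell-like markers tested, 8 were higher with each hairpin, with sums of 11.7 to 14.1 CPM with nt-shRNA, 55.7 to 76.1 with shRNA1 and 47.6 to 60.8 with shRNA2. Of 6 trophectoderm markers tested, 1 was lower with shRNA1 and 2 with shRNA2, with sums of 221 to 227 CPM with nt-shRNA, 178 to 201 with shRNA1 and 160 to 172 with shRNA2. The sums of the neural and germ-layer markers were 125 to 136, 111 to 123 and 96.4 to 106 CPM in the same order. Of the 8 tested, 1 was higher and 2 lower with shRNA1, and 3 higher and 2 lower with shRNA2 (medians -0.13 and 0.10). Primitive endoderm markers summed to 320.0 to 329, 261 to 316 and 295 to 314. Of the 7 tested, 0 were called with shRNA1, and 1 was higher and 2 lower with shRNA2 (medians 0.05 and -0.32). Fibroblast markers summed to 21.3 to 23.1, 22.3 to 25 and 15.4 to 19.3. Of the 4 tested, 1 was higher with shRNA1, and 1 higher and 1 lower with shRNA2 (medians 0.42 and 0.33). Over all tested genes, 13.8% were called higher and 17.1% lower with shRNA1, and 27.2% and 28.7% with shRNA2. The part of these cell-state markers in the levels below was not tested, and in bulk RNA fewer cells of a type and less RNA per cell cannot be told apart.

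Opposite calls were rare in these libraries. A gene was called at a Benjamini-Hochberg adjusted p-value under 0.05 in edgeR's quasi-likelihood test across all 8 libraries. Under shRNA1 the higher calls numbered 2407 (13.8%) and the lower calls 2981 (17.1%). Under shRNA2 they numbered 4748 (27.2%) and 5010 (28.7%). The same direction was called with both hairpins for 4655 genes (26.7%), and opposite directions for 7 (0.0401%), which is the rule itself. Fold changes of opposite sign were more common, at 3299 genes (18.9%), of which 132 were called with shRNA1 only, 682 with shRNA2 only and 2478 with neither. In the direct comparison of shRNA2 with shRNA1, 2941 genes were called higher (16.9%) and 3263 lower (18.7%), and the 7 genes were among them, 5 higher and 2 lower, as follows from the rule.

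**Figure D1:**
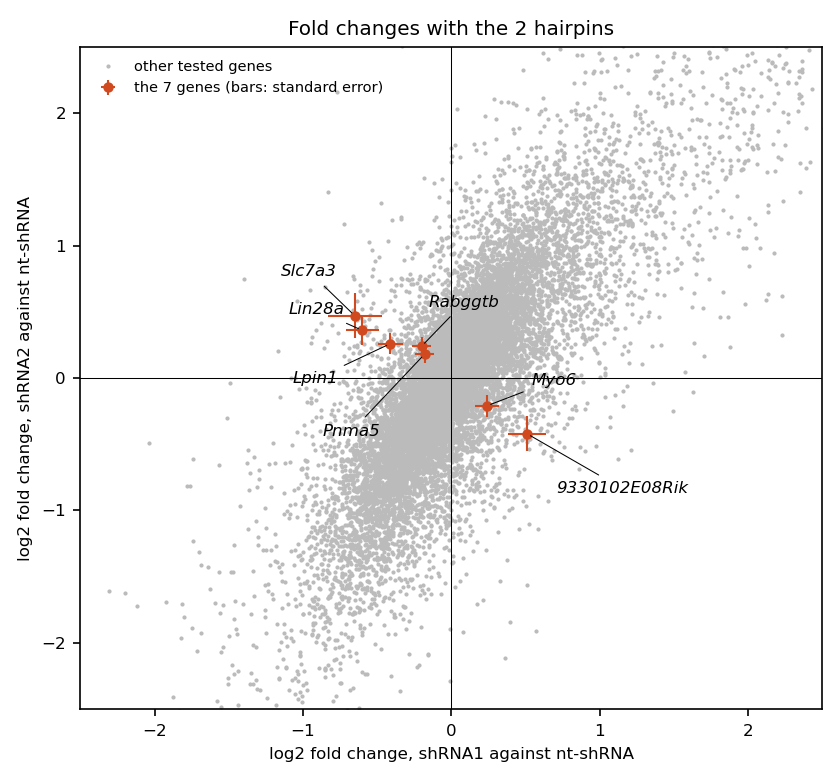
Each point is 1 of the tested genes, with its log2 fold change under shRNA1 on the x axis and under shRNA2 on the y axis, both against the same 2 nt-shRNA libraries; 257 genes lie outside the axes at ±2.5. The 7 genes, with standard errors as bars, sit in the upper left and lower right of the plot, between 0.18 and 0.65 from 0 with shRNA1 and between 0.18 and 0.47 with shRNA2.

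The changes of the 7 genes were modest. Their absolute log2 fold changes had a median of 0.41 with shRNA1 and 0.26 with shRNA2, against 0.44 and 0.59 over all genes called in those comparisons. At the edge of the rule, *Myo6* was just inside with adjusted p-values of 0.029 with shRNA1 and 0.0362 with shRNA2 (edgeR), and *Pnma5* with 0.0429 and 0.0285. Just outside lay *Spock1*, at log2 fold changes of 0.45 and -0.73 (adjusted p = 0.051 and 0.00244, edgeR). *Porcn*, at -0.61 and 0.46 (adjusted p = 0.0328 and 0.0556, edgeR), and *Sycp3*, at 0.26 and -0.38 (adjusted p = 0.0557 and 0.00356, edgeR), were the next.

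**Figure D2:**
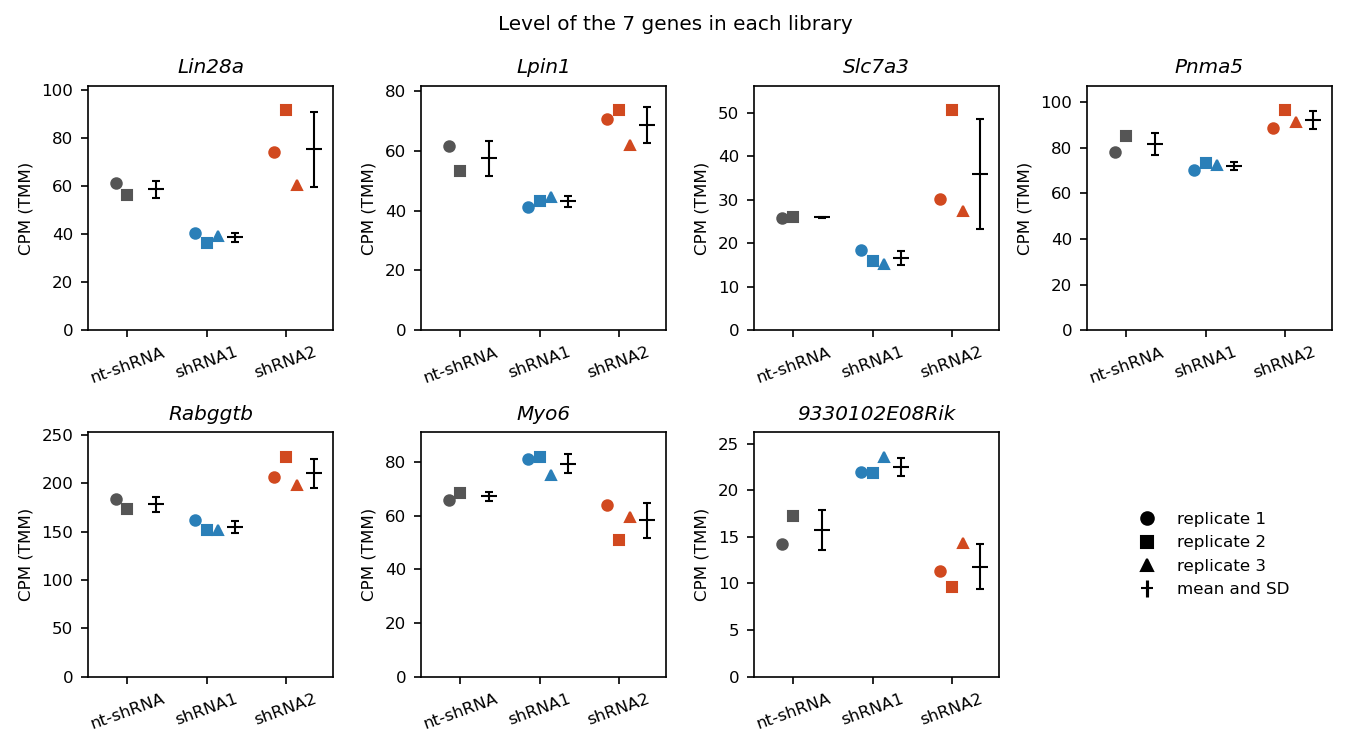
Levels of the 7 genes in CPM (TMM-normalised, linear axes from 0), 1 panel per gene and 1 symbol per replicate number, with the mean and SD beside each group (n = 2, 3 and 3). Each shRNA1 group lies apart from both other groups, and the square, shRNA2 replicate 2, is the shRNA2 library farthest from nt-shRNA in 7 of 7 panels.

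*Lin28a* (chr4:134003330-134018841, minus strand) was measured at 61.3 and 56.2 CPM with nt-shRNA, at 40.3, 36.5 and 39.1 with shRNA1, and at 74.3, 91.6 and 60.3 with shRNA2. The 3 shRNA1 libraries were below all others, while the lowest shRNA2 library fell between the 2 controls, so that shRNA2 and nt-shRNA overlapped. Group means were 58.8 ± 3.58 CPM (SD, n = 2) with nt-shRNA, 38.6 ± 1.94 (n = 3) with shRNA1 and 75.4 ± 15.7 (n = 3) with shRNA2. On the log2 scale the fold change was -0.60 (standard error 0.11) with shRNA1 and 0.36 (standard error 0.11) with shRNA2, a difference of 0.96 (standard error 0.10). Per kilobase of exon, the nt-shRNA level of *Lin28a* was 14.7 CPM, above 77.7% of the tested genes. An antisense transcript, *Gm13061*, overlaps its exons and was counted at most once in a library.

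Its paralog did not share this pattern. *Lin28b*, which also blocks let-7 maturation, rose with both hairpins, from 5.80 ± 0.224 CPM (n = 2) to 10 ± 1.93 (n = 3) with shRNA1 and 15.1 ± 0.132 (n = 3) with shRNA2. Its log2 fold changes were 0.78 (adjusted p = 0.000561, edgeR) and 1.38 (adjusted p = 2.03e-07, edgeR), and shRNA2 exceeded shRNA1 by 0.60 (adjusted p = 0.000933, edgeR). Among 18 tested LIN28 cofactors and let-7 processing genes, 5 were higher and 3 lower with shRNA1 (27.8% and 16.7%). With shRNA2, 9 of the 18 were higher and 3 lower (16.7%). In shRNA2 against shRNA1, 9 of the 18 were again higher and 3 lower (16.7%). Over all tested genes the shares were 13.8% and 17.1%, 27.2% and 28.7%, and 16.9% and 18.7%. The higher calls thus exceeded the share of all tested genes in each comparison, and the lower calls did not. The list median was 0.10 with shRNA1 and 0.14 with shRNA2 on the log2 scale, against -0.01 and 0.00 over all tested genes. *Xpo5*, the exportin of microRNA precursors, was at 85.2 CPM with nt-shRNA, 95.1 with shRNA1 and 141 with shRNA2, and exceeded shRNA1 by 0.57 with shRNA2 (adjusted p = 4.27e-06, edgeR). *Msi1*, an RNA-binding protein that works with LIN28, fell with both (log2 fold changes -0.56, adjusted p = 0.000146, and -1.08, adjusted p = 1.95e-08, edgeR).

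Of 28 known let-7 targets tested, 19 held CTACCTC in the longest 3′ UTR (67.9%). Under shRNA1 the test called 5 higher (17.9%, against 13.8% of all tested genes) and 4 lower (14.3%, against 17.1%), and 19 were not called. Under shRNA2 it called 10 higher (35.7%, against 27.2%) and 9 lower (32.1%, against 28.7%), and 9 were not called. The list medians were 0.03 and 0.06. In shRNA2 against shRNA1, 11 were higher (39.3%, against 16.9%) and 6 lower (21.4%, against 18.7%), with a median of 0.05. *Igf2bp1*, which stabilises growth-related messenger RNAs, rose from 271 ± 3.05 CPM (n = 2) to 339 ± 16.1 (n = 3) with shRNA1 and 483 ± 36.7 (n = 3) with shRNA2, and its relative *Igf2bp2* fell from 109 ± 6.95 to 87.5 ± 2.58 and 65.6 ± 9.91. Both differed between the hairpins (adjusted p = 5.87e-06 and 0.000663, edgeR). The shRNA1 call of *Igf2bp2* was lost without nt-shRNA replicate 2 (-0.25) and with library size alone (-0.20). *Myc*, the growth regulator, was low with nt-shRNA at 0.300 and 0.697 CPM and with shRNA1 at 0.541, 0.888 and 0.428, and stood at 2.98, 6.27 and 1.56 with shRNA2 (log2 difference between the hairpins 2.58, adjusted p = 0.000154, edgeR).

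*Lpin1* (chr12:16535669-16646966, minus strand) stood at 61.6 and 53.4 CPM with nt-shRNA, at 41.2, 43.4 and 44.7 with shRNA1, and at 70.6, 73.6 and 62 with shRNA2. The 3 groups did not overlap, although the lowest shRNA2 library was only just above the higher control. Means were 57.5 ± 5.78 CPM (SD, n = 2), 43.1 ± 1.78 (n = 3) and 68.7 ± 6.06 (n = 3). The log2 fold change was -0.41 (standard error 0.083) with shRNA1 and 0.26 (standard error 0.082) with shRNA2, and the hairpins differed by 0.67 (standard error 0.075). Its nt-shRNA level per kilobase was 5.79 CPM, above 58.7% of the tested genes.

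The other lipins, which catalyse the same step, did not follow *Lpin1*. *Lpin2* rose with both hairpins, from 27.2 ± 0.463 CPM (n = 2) to 33.7 ± 0.676 (n = 3) and 35.4 ± 0.719 (n = 3), by 0.31 (adjusted p = 0.0041, edgeR) and 0.38 (adjusted p = 0.000283, edgeR) on the log2 scale. *Lpin3* was at 23.9 CPM with both nt-shRNA and shRNA1 and fell to 19.3 ± 1.71 (n = 3) with shRNA2 (-0.31 on the log2 scale, adjusted p = 0.0111, edgeR). Without nt-shRNA replicate 2 the *Lpin2* change with shRNA1 (0.29) and the *Lpin3* change with shRNA2 (-0.22) were not called, nor was the latter without shRNA2 replicate 1 (-0.26) or with library size alone (-0.22). Around them, 39 genes of glycerolipid synthesis were tested. Of these, 4 were higher and 7 lower with shRNA1, 10 and 9 with shRNA2, and 10 and 10 in shRNA2 against shRNA1. These are 10.3% and 17.9%, 25.6% and 23.1%, and 25.6% and 25.6%. All tested genes gave 13.8% and 17.1%, 27.2% and 28.7%, and 16.9% and 18.7%. The list medians were 0.00 with each hairpin and 0.07 between them. *Chka*, the choline kinase at the head of phosphatidylcholine synthesis, rose from 70.2 ± 1.38 CPM to 99.0 ± 8.07 and 153 ± 4.99, and differed most clearly between the hairpins (0.63, adjusted p = 1.2e-06, edgeR). The acyltransferases *Gpat2* and *Agpat4* of the same route fell with both hairpins, *Gpat2* from 88.3 ± 0.0485 CPM to 63.5 ± 4.35 and 36.8 ± 5.26, and *Agpat4* from 20.3 ± 1.46 to 13.0 ± 1.77 and 8.72 ± 0.225. They were lower with shRNA2 than with shRNA1 (-0.79 and -0.58 on the log2 scale, adjusted p = 2.41e-06 and 0.00068, edgeR).

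*Slc7a3* (chrX:101079210-101086020, minus strand) showed the largest log2 fold changes of the 7 genes with shRNA1, together with the widest spread. Its levels were 25.8 and 26.0 CPM with nt-shRNA, 18.3, 15.8 and 15.3 with shRNA1, and 30.1, 50.5 and 27.3 with shRNA2. The groups did not overlap, but shRNA2 replicate 2 stood far above the other shRNA2 libraries, which lay close to the controls. Means were 25.9 ± 0.142 CPM (SD, n = 2), 16.5 ± 1.62 (n = 3) and 36.0 ± 12.6 (n = 3). The log2 fold change was -0.65 (standard error 0.18) with shRNA1 and 0.47 (standard error 0.17) with shRNA2, a difference of 1.13 (standard error 0.16). Without shRNA2 replicate 2, the shRNA2 value was 0.15. Per kilobase its nt-shRNA level was 6.84 CPM, above 62.2% of the tested genes.

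Of the 2 other cationic amino acid transporters of its family, neither rose with one hairpin and fell with the other. *Slc7a1*, the more abundant carrier, was at 163 ± 12.1 CPM with nt-shRNA, 138 ± 5.69 with shRNA1 and 150 ± 8.63 with shRNA2, and was called lower with shRNA1 (-0.24, adjusted p = 0.0106, edgeR) but not with shRNA2 (-0.12, adjusted p = 0.14). *Slc7a2* rose with both, by 0.40 (adjusted p = 0.00549, edgeR) and 0.37 (adjusted p = 0.00462, edgeR). Without nt-shRNA replicate 1 the calls of *Slc7a1* with shRNA1 (-0.16) and of *Slc7a2* with both hairpins (0.36 and 0.33) were lost, and that of *Slc7a1* also without shRNA1 replicate 2 (-0.21) and with library size alone (-0.12). Of 31 tested genes of cationic amino acid transport and arginine use, 6 were higher and 9 lower with shRNA1. With shRNA2 these counts were 9 and 10, and in the direct comparison 5 and 7. The shares were 19.4% and 29.0%, 29.0% and 32.3%, and 16.1% and 22.6%. Over all tested genes they were 13.8% and 17.1%, 27.2% and 28.7%, and 16.9% and 18.7%. The medians of this list were -0.04 and -0.10. The 3 genes of the list with the smallest adjusted p-values between the hairpins were higher with shRNA2 than with shRNA1. *Prmt1*, the main arginine methyltransferase, was at 214 ± 1.55 CPM with nt-shRNA, 203 ± 5.86 with shRNA1 and 269 ± 20.8 with shRNA2 (difference between the hairpins 0.40, adjusted p = 4.75e-05, edgeR). *Odc1*, which makes putrescine from ornithine, was at 252 ± 4.48, 258 ± 6.15 and 347 ± 39.8 CPM (0.43, adjusted p = 8.29e-05, edgeR), and *Prmt5* was at 164 ± 6.09, 157 ± 4.41 and 201 ± 19.8 CPM (0.35, adjusted p = 0.000345, edgeR).

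*Pnma5* (chrX:73033981-73037103, minus strand) moved least. It was measured at 78.2 and 85.1 CPM with nt-shRNA, at 70.3, 73.4 and 72.5 with shRNA1, and at 88.7, 96.5 and 91.6 with shRNA2. The 3 groups did not overlap, and the 2 controls were 0.12 apart on the log2 scale. Means were 81.7 ± 4.89 CPM (SD, n = 2), 72.1 ± 1.64 (n = 3) and 92.2 ± 3.93 (n = 3), and the log2 fold changes were -0.18 and 0.18 (standard error 0.065 each), a difference of 0.36 (standard error 0.059). Per kilobase its nt-shRNA level was 26.1 CPM, above 87.3% of the tested genes. *Pnma5* and *Slc7a3* both lie on the X chromosome, which holds 3.5% of the tested genes.

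Its relatives were scarce. *Pnma2* rose with both hairpins, from 2.42 ± 0.513 CPM (n = 2) to 3.75 ± 0.383 (n = 3) and 7.26 ± 1.08 (n = 3), by 0.62 (adjusted p = 0.0206, edgeR) and 1.58 (adjusted p = 7.24e-07, edgeR), of which the shRNA1 value was not called without nt-shRNA replicate 1 (0.42) or shRNA1 replicate 2 (0.55). *Pnma1*, at 0.518 CPM with nt-shRNA (log2 fold changes -0.04 and 0.39), and *Pnmal1*, at 0.328 CPM (-0.34 and 0.71), had the signs of *Pnma5* but were called in no comparison, and *Pnma3*, at 0.379 CPM, did not pass the filter. Of 17 tested genes of gag origin, 4 were higher and 1 lower with shRNA1, 7 and 2 with shRNA2, and 5 and 3 in the direct comparison. The medians against nt-shRNA were 0.13 and 0.44. In shares these were 23.5% and 5.88%, 41.2% and 11.8%, and 29.4% and 17.6%. Those of all tested genes were 13.8% and 17.1%, 27.2% and 28.7%, and 16.9% and 18.7%. *Rtl1*, an imprinted retrotransposon-derived gene, was at 4.85 ± 0.388, 5.2 ± 0.33 and 7.26 ± 0.33 CPM and higher with shRNA2 than with shRNA1 (0.48, adjusted p = 0.00606, edgeR). *Zcchc12* rose more with shRNA1 (1.46, adjusted p = 3.88e-05, edgeR) than with shRNA2 (0.86, adjusted p = 0.00269, edgeR), and that difference passed the test (-0.60, adjusted p = 0.0116, edgeR), though not without shRNA1 replicate 2 (-0.49) or shRNA2 replicate 1 (-0.55).

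*Rabggtb* (chr3:153907287-153913009, minus strand) was the most abundant of the 7 genes, at 73.6 CPM per kilobase with nt-shRNA, above 96.3% of the tested genes. Its levels were 183.6 and 173.0 CPM with nt-shRNA, 161.9, 151.4 and 151.3 with shRNA1, and 206.2, 227.4 and 198.1 with shRNA2. No group overlapped another. Means were 178 ± 7.49 CPM (SD, n = 2), 155 ± 6.12 (n = 3) and 211 ± 15.1 (n = 3). The log2 fold change was -0.20 (standard error 0.066) with shRNA1 and 0.24 (standard error 0.067) with shRNA2, and the difference was 0.44 (standard error 0.06). Its shRNA1 call was lost in 6 of the 15 alternative analyses, among them that with the replicate number as a block.

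*Rabggtb* is also the host of small nucleolar RNAs. *Snord45b* and *Snord45c* overlap its exons and had no count. *Gm24494*, annotated in an intron and singled out after its values were seen, was at 3.17 ± 0.394 CPM with nt-shRNA, 4.16 ± 0.278 with shRNA1 and 7.74 ± 1.66 with shRNA2. It was called higher with shRNA2 (1.29, adjusted p = 8.23e-06, edgeR) and not with shRNA1 (0.39, adjusted p = 0.133), and the difference passed the test (0.90, adjusted p = 0.000296, edgeR). The libraries were made from poly(A)-selected RNA, and in these counts the small RNA and unspliced RNA of its host cannot be told apart.

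*Rabggta*, the alpha subunit that pairs with RABGGTB, was at 57.9 ± 4.43, 54.9 ± 1.71 and 60.4 ± 1.2 CPM and was not called (log2 fold changes -0.08 and 0.06, 95% intervals -0.21 to 0.06 and -0.08 to 0.20). *Chm*, the escort protein that presents Rabs to the enzyme, was called higher with shRNA2 (0.34, adjusted p = 0.015, edgeR) but not with shRNA1 (0.19, adjusted p = 0.212), and its relative *Chml* was called in neither (0.25 and 0.21). The *Chm* call was lost without either control (0.36 and 0.32) and without shRNA2 replicate 1 (0.29). Of 15 genes of Rab prenylation and other prenyltransferases, shRNA1 gave 0 higher (0 by DESeq2 and 1, *Chml*, at an unadjusted p under 0.05) and 6 lower calls. With shRNA2, 3 were higher and 4 lower (26.7%), and in the direct comparison 5 were higher and 1 lower (33.3% and 6.67%). The medians against nt-shRNA were -0.08 and -0.03. Over all tested genes the shares were 13.8% and 17.1%, 27.2% and 28.7%, and 16.9% and 18.7%. Both shRNA2 counts were thus below the shares of all tested genes, while the 6 lower calls with shRNA1 and the 5 higher calls between the hairpins were above them. *Zmpste24*, a protease of farnesylated proteins, and *Ptar1*, a relative of the alpha subunit, were higher with shRNA2 than with shRNA1 by 0.31 and 0.26 (adjusted p = 0.00129 and 0.0143, edgeR), with that of *Ptar1* not called without shRNA1 replicate 3 (0.18) or shRNA2 replicate 1 (0.20). Of the substrates, 41 tested Rab GTPases, 4 were higher and 10 lower with shRNA1 and 11 and 18 with shRNA2 (medians -0.07 and -0.16). In the direct comparison 5 were higher and 7 lower. Beside the same shares of all tested genes, these were 9.76% and 24.4%, 26.8% and 43.9%, and 12.2% and 17.1%. *Rab23* rose with both, to 45 ± 0.981 and 69.7 ± 10.8 CPM from 36.4 ± 1.86, and *Rab6b* fell with both, to 54.0 ± 1.79 and 39.3 ± 3.38 from 66.4 ± 2.82. The shRNA1 value of *Rab23* was not called without either control (0.36 and 0.25) or shRNA1 replicate 1 or 2 (0.31 and 0.29), and that of *Rab6b* not without nt-shRNA replicate 1 (-0.25) or with library size alone (-0.18). *Rab18*, a Rab of lipid droplets, was lower with shRNA2 than with shRNA1 (-0.33, adjusted p = 0.000217, edgeR).

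*Myo6* (chr9:80165031-80311729, plus strand) was the protein-coding gene of the reverse pattern. It was measured at 65.9 and 68.4 CPM with nt-shRNA, at 81.2, 81.9 and 75.2 with shRNA1, and at 64.0, 51.1 and 59.5 with shRNA2. The groups did not overlap, with the highest shRNA2 library close to the lower control. Means were 67.2 ± 1.74 CPM (SD, n = 2), 79.4 ± 3.68 (n = 3) and 58.2 ± 6.57 (n = 3). The log2 fold change was 0.24 (standard error 0.08) with shRNA1 and -0.21 (standard error 0.081) with shRNA2, and the hairpins differed by -0.45 (standard error 0.073). Its nt-shRNA level per kilobase was 5.56 CPM, above 57.9% of the tested genes.

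Among adaptors that join MYO6 to its cargo, listed here together with the ATPase gene *Nsf*, those called did not share a direction. Of 14 tested, 5 were higher and 3 lower with shRNA1, 5 and 5 with shRNA2, and 4 and 3 in the direct comparison. The remaining 6, 4 and 7 were not called. The shares were 35.7% and 21.4%, 35.7% and 35.7%, and 28.6% and 21.4%. Those of all tested genes were 13.8% and 17.1%, 27.2% and 28.7%, and 16.9% and 18.7%. The autophagy adaptors *Calcoco2* and *Tax1bp1* rose with both hairpins, *Calcoco2* by 0.67 and 1.12 and *Tax1bp1* by 0.46 and 0.76 on the log2 scale. A further adaptor of autophagy, *Optn*, fell by 0.28 and 0.94, and *Sqstm1* fell by 0.37 and 0.47. The *Optn* value with shRNA1 was not called in 6 of the 15 alternatives (-0.16 to -0.27), among them those without nt-shRNA replicate 1, shRNA1 replicate 1, shRNA1 replicate 2 or shRNA2 replicate 1. *Nsf*, the ATPase that takes apart SNARE complexes after fusion, rose from 112 ± 7.95 CPM to 169 ± 4.26 and 218 ± 4.27 and was higher with shRNA2 than with shRNA1 (0.37, adjusted p = 5.5e-05, edgeR). The endosomal adaptors *Tom1* (-0.25 and -0.38) and *Tom1l2* (0.34 and 0.41) moved against each other. The shRNA1 call was lost in 8 of the 15 alternatives for *Tom1* (-0.14 to -0.29), among them those without either control, shRNA1 replicate 1 or 2, or shRNA2 replicate 1. For *Tom1l2* it was lost without either control (0.28 and 0.41) or shRNA1 replicate 2 or 3 (0.27 and 0.28), and its shRNA2 call was lost without nt-shRNA replicate 1 (0.35). *Gipc1*, which links MYO6 to membrane receptors, was at 223 ± 0.107, 229 ± 8.94 and 187 ± 20.2 CPM and was lower with shRNA2 than with shRNA1 (-0.29, adjusted p = 0.00208, edgeR). Its relative *Gipc2* was low, at 0.770 and 0.698 CPM with nt-shRNA and shRNA1, and lower with shRNA2 at 0.122 CPM, the level of about 3 counts (against nt-shRNA -2.61, adjusted p = 9.28e-05, and against shRNA1 -2.46, adjusted p = 0.000384, edgeR). *Sh3tc2* was low too, at 0.655 CPM with nt-shRNA, and was called higher with shRNA1 (1.07, adjusted p = 0.0288, edgeR) but not with DESeq2 (1.10), without either control (1.39 and 0.80) or without shRNA1 replicate 2 (0.66). *Lmtk2* was called higher with shRNA2 (0.32, adjusted p = 0.000174, edgeR), and *Dab2*, the clathrin adaptor, was called in no comparison (0.06 and -0.09).

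Among 19 tested unconventional myosins other than *Myo6*, 2 were higher and 2 lower with shRNA1, and 4 and 8 with shRNA2. In shRNA2 against shRNA1, 1 was higher and 8 were lower. Their shares were 10.5% and 10.5%, 21.1% and 42.1%, and 5.26% and 42.1%. Those of all tested genes were 13.8% and 17.1%, 27.2% and 28.7%, and 16.9% and 18.7%. The list medians were 0.04 and -0.21. *Myo5b*, a motor of recycling endosomes, was at 16.5 ± 1.21 CPM with nt-shRNA, 19.4 ± 1.53 with shRNA1 and 12 ± 2.15 with shRNA2. It was called lower with shRNA2 (-0.47, adjusted p = 0.00456, edgeR) but not higher with shRNA1 (0.23, adjusted p = 0.163), and the hairpins differed (-0.70, adjusted p = 0.000163, edgeR). *Myo5a* rose with shRNA2 (0.17, adjusted p = 0.0357, edgeR) and was at 0.10 with shRNA1 (adjusted p = 0.26), but without nt-shRNA replicate 1 neither this call (0.09) nor the *Myo5b* call with shRNA2 (-0.39) held. The *Myo5a* call was also lost without the low-count filter (0.15) and without shRNA1 replicate 2 (0.17), shRNA2 replicate 2 (0.16) or shRNA2 replicate 3 (0.17). *Myo1f* was higher with shRNA2 than with shRNA1 (1.20, adjusted p = 5.77e-05, edgeR) at a low level of 5.0 ± 0.832 CPM.

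**Figure D3:**
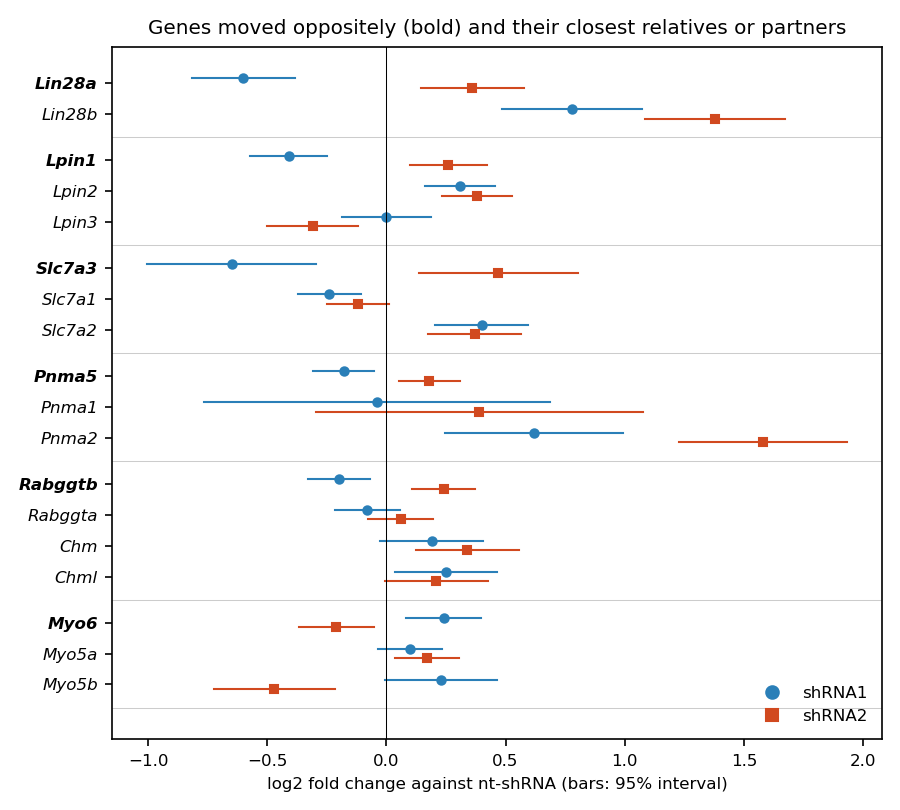
Log2 fold changes against nt-shRNA (x axis) for the 6 protein-coding genes of opposite direction, in bold, and their closest relatives or partners, with 95% intervals of 1.96 standard errors (circles, shRNA1; squares, shRNA2). Both points of *Lin28b*, *Lpin2*, *Slc7a2* and *Pnma2* lie to the right of 0. The 2 points of each gene in bold lie on opposite sides, as follows from the rule. Those of *Myo5b* (0.23 and -0.47), *Pnma1* (-0.04 and 0.39) and *Rabggta* (-0.08 and 0.06) do so too, but none of these was called with both hairpins.

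*9330102E08Rik* (chr6:128169704-128183803, minus strand) was the least abundant of the 7 genes. Its levels were 14.2 and 17.3 CPM with nt-shRNA, 22.0, 21.9 and 23.6 with shRNA1, and 11.3, 9.65 and 14.4 with shRNA2. The shRNA1 libraries were above all others, and the highest shRNA2 library passed the lower control, so that these 2 groups overlapped. Means were 15.8 ± 2.15 CPM (SD, n = 2), 22.5 ± 0.938 (n = 3) and 11.8 ± 2.42 (n = 3). The log2 fold change was 0.51 (standard error 0.13) with shRNA1 and -0.42 (standard error 0.13) with shRNA2, a difference of -0.94 (standard error 0.12). Per kilobase its nt-shRNA level was 4.10 CPM, above 51.8% of the tested genes.

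Its neighbours on chromosome 6 were both called. *Gm18609*, a pseudogene 1.47 kb away on the other strand, rose with shRNA1, from 6.62 ± 0.0915 to 9.66 ± 0.659 CPM (0.54, adjusted p = 0.0111, edgeR), and was at 5.81 ± 1.31 with shRNA2 (-0.19, adjusted p = 0.327). The hairpins differed there by -0.73 (adjusted p = 0.000623, edgeR), and its shRNA1 call was lost without either control (0.53 and 0.56) or shRNA1 replicate 1 (0.49). *Tspan9*, a tetraspanin gene 26.1 kb away on the same strand, fell with both hairpins, by 0.28 (adjusted p = 0.0115, edgeR) and 0.83 (adjusted p = 7.19e-08, edgeR), of which the shRNA1 value was not called without nt-shRNA replicate 1 (-0.18), shRNA1 replicate 1 or 2 (-0.25 each) or with library size alone (-0.16). Of the 12 neighbours of the other 6 genes, 2 differed between the hairpins, where 35.6% of all tested genes did. They were *Gm24494* beside *Rabggtb* and *Snx12* beside *Slc7a3* (0.19, adjusted p = 0.0486, edgeR), and the *Snx12* call was lost in 12 of the 15 alternatives (0.14 to 0.22). Around *Slc7a3* and *Pnma5*, *Tex11* (0.53 and 0.57) and *Xlr4a* (0.66 and 0.46) were called higher with both hairpins. So was *Htr1b*, 1320 kb from *Myo6* and very low at 0.108 CPM with nt-shRNA (2.14 and 2.33, adjusted p = 0.00735 and 0.00157, edgeR). *Greb1*, beside *Lpin1*, was called higher with shRNA2 (0.51, adjusted p = 0.0281, edgeR) but not with shRNA1 (0.47). Next to *Myo6* and *Lin28a* the log2 fold changes were 0.00 and 0.01 for *Senp6* and 0.03 and -0.11 for *Dhdds*, which were not called.

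Across the 9 pathway lists around these genes, 219 distinct genes were tested, of which 15.1% were called higher and 20.5% lower with shRNA1, and 29.7% and 31.1% with shRNA2, against 13.8% and 17.1%, and 27.2% and 28.7%, of all tested genes. By the rule none of them was called in opposite directions by edgeR. DESeq2 gave 0, and an unadjusted p under 0.05 in both comparisons gave 1, *Rab31* (0.21 and -0.25). The same direction was called with both hairpins for 61 (27.9%, against 26.7% of all tested genes). The 2 hairpins differed for 100 of the 219 (45.7%, against 35.6% of all tested genes).

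The shRNA1 libraries did not overlap with nt-shRNA for 7 of the 7 genes, where 56.8% of all tested genes did not overlap. For shRNA2 this held for 5 of the 7, all but *Lin28a* and *9330102E08Rik*, against 71.4% of all genes. The hairpins themselves did not overlap for 7 of the 7, against 47.8%. The order was thus shRNA1, nt-shRNA, shRNA2 for 5 genes and the reverse for *Myo6* and *9330102E08Rik*, with nt-shRNA and shRNA2 as the neighbours that overlapped in 2 of them. These counts follow in part from the choice of the genes.

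A single shRNA2 library stood out in these genes. Replicate 2 was the farthest from the nt-shRNA mean in 7 of the 7 genes. Over all tested genes it was the farthest of the 3 shRNA2 libraries in 49.0%, and over the genes called with shRNA2 in 55.7%. Without it, the shRNA2 log2 fold changes were 0.20 for *Lin28a*, 0.21 for *Lpin1*, 0.15 for *Slc7a3*, 0.15 for *Pnma5*, 0.19 for *Rabggtb*, -0.12 for *Myo6* and -0.29 for *9330102E08Rik*, and only *Lpin1* and *Rabggtb* were still called. The nearest shRNA2 library was replicate 3 for 5 genes and replicate 1 for *Pnma5* and *Myo6*. *Eftud2* itself was higher in shRNA2 replicate 3 (234.7 CPM) than in replicates 1 and 2 (198.2 and 202.1 CPM), and its part in this order was not tested. The fold between the highest and the lowest shRNA2 library was 1.85 for *Slc7a3*, 1.52 for *Lin28a* and 1.49 for *9330102E08Rik*, wider than in 93.0%, 84.0% and 82.7% of the tested genes. For *Myo6*, *Lpin1*, *Rabggtb* and *Pnma5* it was 1.25, 1.19, 1.15 and 1.09. Within shRNA1 the libraries lay closer together, with folds between 1.05 and 1.20.

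Replicates also deviated together. After group means were taken out, log2 CPM over the 8 libraries correlated at a median of 0.47 (from -0.11 to 0.91) in the 11 pairs of genes that moved the same way and of -0.68 (from -0.91 to 0.00) in the 10 pairs that moved apart. These points share libraries, depth and scaling, and are given as a description.

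The genes with the most similar profile were taken as the 3 highest Pearson correlations of log2 CPM over the 8 libraries. For *Lin28a* these were *Eif4b* (0.996), a translation initiation factor, *U2af2* (0.986), the large subunit of the splicing factor that recognises the 3′ splice site, and *Jmjd6* (0.983), a hydroxylase that modifies U2AF2. *Eif4b* was at 927 ± 4.05 CPM with nt-shRNA, 804 ± 16.2 with shRNA1 and 1010 ± 68 with shRNA2. *U2af2* was at 289 ± 4.17, 248 ± 8.59 and 318 ± 21.9 CPM, and was also among the 3 nearest to *Lpin1* (0.978) with *Kat5* (0.985) and *Naa10* (0.978). Each of *Eif4b*, *U2af2* and *Jmjd6* was called lower with shRNA1 (-0.20, -0.22 and -0.28) and none was called higher with shRNA2 (0.12, 0.14 and 0.20). With library size alone the 3 shRNA1 calls were lost and the values shrank to -0.09, -0.10 and -0.17. The calls were also lost without either control, though the values stayed about as large. These were -0.21, -0.20 and -0.24 without nt-shRNA replicate 1 and -0.20, -0.23 and -0.32 without replicate 2. The calls of *Eif4b* (-0.19) and *U2af2* (-0.20) were also lost without shRNA1 replicate 2. That of *U2af2* was lost without shRNA1 replicate 1 (-0.20) and that of *Jmjd6* without shRNA1 replicate 3 (-0.24). For *Slc7a3* the nearest were *Rragc* (0.991), a GTPase of amino acid sensing, *Mrpl49* (0.985) and *Khdc4* (0.984). For *Rabggtb* they were *Xpo6* (0.988), *Hmgn1* (0.987) and *Ran* (0.986), and for *Pnma5* *Mettl1* (0.979), *Dlgap3* (0.977) and *Nelfcd* (0.976). *Myo6* was most like *Gab2* (0.991), *Fam228b* (0.978) and *Sh2d4a* (0.974), and *9330102E08Rik* was most like *Clec2l* (0.995), *Gtsf1* (0.985) and *Gm15777* (0.983), genes that were mostly low, at 2.36 to 14.6 CPM with nt-shRNA.

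The calls of the 7 genes depended on the analysis. In none of 15 alternative analyses did a fold change of the 7 genes change sign. *Lpin1* kept both calls in 14 of the 15, losing only the shRNA2 call without nt-shRNA replicate 2. *Pnma5* kept its shRNA1 call in 5 of the 15, *Myo6* its shRNA1 call in 11 and its shRNA2 call in 9, *Rabggtb* its shRNA1 call in 9, and *Slc7a3* its shRNA2 call in 10. *Lin28a* kept its shRNA1 call in all 15 and its shRNA2 call in 12. With library size alone the log2 fold change was -0.07 for *Pnma5* and -0.09 for *Rabggtb* with shRNA1 and -0.12 for *Myo6* with shRNA2. The shRNA2 value of *Lpin1* was 0.16 without nt-shRNA replicate 2, and that of *Pnma5* was 0.11 without nt-shRNA replicate 1. Without nt-shRNA replicate 2 no gene of the 7 stayed in the group, without nt-shRNA replicate 1 only *Lin28a* and *Lpin1* stayed, and without shRNA2 replicate 2 only *Lpin1* and *Rabggtb*. With either control left out the nt-shRNA group is 1 library, which is assumed to vary like the other groups, and calls were lost also where the fold change was about as large, such as 0.48 for *Slc7a3* with shRNA2, -0.25 for *Rabggtb* with shRNA1 and 0.27 for *Myo6* with shRNA1 without nt-shRNA replicate 2.

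**Figure D4:**
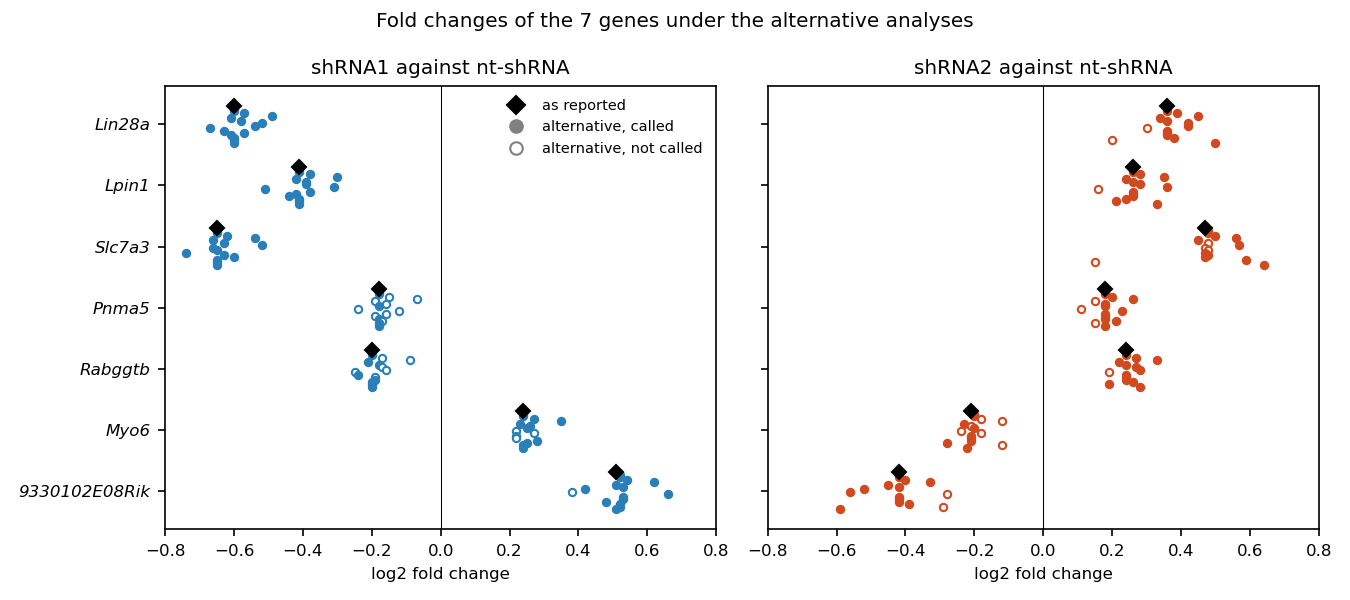
Log2 fold changes of the 7 genes (x axis) with shRNA1 (left) and shRNA2 (right) in the reported analysis (diamonds) and in 15 alternatives (circles, filled where the gene was called and open where it was not). No circle crosses 0, and open circles are most frequent for *Pnma5* with shRNA1, followed by *Rabggtb* with shRNA1 and *Myo6* with shRNA2.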

How the data were processed

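RNA-seq libraries of R1 mESCs were analysed in 3 groups (shRNA1, shRNA2 and nt-shRNA). After alignment with STAR, the authors counted fragments per gene with featureCounts 1.6.2 (GENCODE M24, GRCm38) without strand and deposited the raw counts. Near-identical copies and overlapping or antisense genes are therefore uncertain. Names came from GENCODE M21 for 55144 of 55385 genes.

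Genes passing filterByExpr (minimum count 10) were TMM-normalised and tested with glmQLFit and glmQLFTest in edgeR 4.0.16 (R 4.3.3), with a coefficient per group over all 8 libraries and no block. Standard errors were taken from the F statistic. Fold changes are model estimates and can differ slightly from ratios of the printed means. Pearson correlations used log2 CPM with a prior count of 2. The p-values measure the spread between these libraries. Depth was 19569525 to 29871048 counts per library, and 3 counts corresponded to 0.105 to 0.148 CPM. Libraries of a group differed by a chi-square of 3.12 to 12.2 per gene, so none repeated another. The fit was tested on simulated data with larger changes than those of the 7 genes.

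The 7 genes and all lists were chosen with earlier results of these data known. Genes named beside them were the closest relatives or partners, in each list the 3 genes whose adjusted p-value between the hairpins was smallest, the 3 genes most correlated with each gene, those just inside and outside the rule, and the neighbours of *9330102E08Rik*. Some genes that this choice named are not reported here. The authors' own test was DESeq2. Alternatives were DESeq2 1.42.0, edgeR with the size factors of DESeq2 or with library sizes only, an edgeR fit without the low-count filter or with a stricter one (10 counts or more in all libraries), fits restricted to the 2 groups of a comparison, a block for the replicate number, and the omission of single libraries. Figures were drawn with matplotlib 3.10.9. Splicing events were not analysed here.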

Additional observations from a re-analysis of the deposited data

Results flagged for a closer look

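Among 263 tested genes of the pathway and marker lists, 9 (3.42%, against 1.47% of all tested genes) differed between the hairpins in the direct test with all shRNA1 libraries on one side of both controls and all shRNA2 libraries on the other. Higher with shRNA2 than with shRNA1 were *Pcyt1b*, of phosphatidylcholine synthesis (0.90 on the log2 scale, adjusted p = 0.000761, edgeR), *Prmt1* (0.40, adjusted p = 4.75e-05, edgeR), the microRNA processing genes *Drosha* (0.19, adjusted p = 0.00905, edgeR) and *Khsrp* (0.16, adjusted p = 0.0249, edgeR), and the laminin gene *Lama1* (0.47, adjusted p = 5.53e-06, edgeR). *T*, a mesoderm marker, was also higher (1.21, adjusted p = 0.00204, edgeR) at no more than 1.77 CPM in a library. Lower were *Dis3l2*, the nuclease that degrades let-7 precursors tagged with LIN28's help (-0.33, adjusted p = 0.00212, edgeR), *Rab31* (-0.46, adjusted p = 0.000637, edgeR) and *Myo5b* (-0.70, adjusted p = 0.000163, edgeR). The difference between the hairpins held in all alternatives for these genes except *Khsrp*, where it was lost without shRNA1 replicate 1 (0.14), shRNA1 replicate 2 (0.16) or shRNA2 replicate 2 (0.13), without the low-count filter (0.14) and with library size alone (0.13).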

How the results depend on the processing

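The number of genes called in opposite directions depended on the processing more than any other result. It was 7 as reported, 4 with DESeq2, 15 with library size alone, 19 without a filter, 12 with only the groups compared and 11 with the replicate block, and ran from 1 to 35 when single libraries were left out, the lowest without nt-shRNA replicate 2 and the highest without shRNA2 replicate 3. The group held 4 of the 7 genes with DESeq2, library size alone, the stricter filter and only the groups compared. The cause was not tested. Calls with shRNA1 ran from 2948 to 5903 genes when single libraries were left out. Library size alone moved the median of all genes with shRNA1 to 0.11 and the split to 4101 higher and 1713 lower, against 2407 and 2981. Of 315 values of the 7 genes under the alternatives, 43 lost the call, and none changed sign. Same-numbered libraries deviated together at r between -0.026 and 0.074, so these correlations showed no pairing by number. In its qPCR the paper compared knockdown and control replicates in pairs. With the block, 2694 genes were called higher and 3324 lower with shRNA1, and *Rabggtb* lost its shRNA1 call (-0.17). Each of the 7 genes had at least 214 counts in each library and rested on 2 control libraries.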
